A study of Arabidopsis thaliana with 2 samples.

Results

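The Arabidopsis genes described here are the heat shock factors, the heat shock proteins they switch on, and the coactivator gene MBF1C. They were chosen by locus identifier: 39 genes, made up of 21 heat shock factor (HSF) genes, 12 small heat shock protein (small HSP) genes, 5 genes for the larger chaperones HSP70, HSP90 and HSP101, and MBF1C. All 39 are among the 33602 loci counted. RNA sequencing compared explants of the first pair of rosette leaves on B5 medium, with estradiol in the solvent DMSO or with DMSO alone. Plants were at 12 days after sowing, and each group has 1 library. Both groups carry pER8:3xFlag-NAC1 in Col-0, a construct in which estradiol turns on Flag-tagged NAC1, a transcription factor, through an activator protein that the plant makes all the time. No group of plants without the transgene enters the comparison, so responses to NAC1 and to estradiol itself cannot be told apart. The series' purpose, from its design text and title, was to find genes that NAC1 switches on during regeneration from wounded explants. The labels name no heat treatment and no length of culture.

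Heat shock factors are DNA-binding proteins that recognise inverted repeats of the letters GAA, called heat shock elements, upstream of chaperone genes. Class A factors activate transcription, most class B factors lack the activating motif and act as repressors, and class C is a small separate branch. The chaperones they control keep proteins folded: small HSPs hold partly unfolded proteins without using ATP, HSP70 and HSP90 fold and mature client proteins, and HSP101 pulls aggregates apart. In leaves these genes are best known from heat, but several also respond to oxidative, salt and wound stress.

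The library from estradiol-treated explants held 48350705 gene counts and the control library 39799127. NAC1 (AT1G56010) had 28380 counts with estradiol and 466 in the control, a ratio of 49.4 (95% counting interval 45.1 to 54.3), the direction that the treatment label gives. The sample titles alone, DM for the estradiol library and ER for the control, could be read the other way round. The treatment label and the treatment protocol both assign them as used here. The 3 leaf mesophyll markers RBCS1A, CAB1 and CA1 summed to 4632 CPM with estradiol and 7222 CPM in the control, where CPM is the usual count scaled to a common library size. The 4 seed markers summed to 0 counts with estradiol and 2 in the control, and the 2 root hair markers to 1 count in each. With 1 library per group there is no test and no p-value. Each ratio is between 2 libraries, its interval covers counting error only, and fewer cells of a type cannot be told apart from less RNA per cell.

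A gene was called measured at 10 or more counts in at least 1 library. It was called higher where its whole 95% interval lay above 2-fold and lower where it lay below 0.5-fold. Of the 39 genes 33 were measured, 8 were called higher with estradiol and 2 lower, and 23 were neither. Over all 20274 measured genes 5.38% were called higher and 4.64% lower. The calls were spread unevenly over the classes. Among the HSF genes 1 of 17 measured was higher and 1 lower, both at 5.88% and near the background shares. Among the HSP genes and MBF1C 7 of 16 measured were higher and 1 lower. Of the 8 genes called higher, 3 (HSP17.4, AT1G53540 and HSP17.6II) reached 10 counts only in the estradiol library, so they could pass the minimum only by being higher there. At a 4-fold threshold 4 members were higher, all cytosolic small HSP genes, and 0 lower, against 2.31% and 0.794% of all measured genes. The same 4 were higher where a coefficient of variation of 0.2 (background 3.44% higher and 1.9% lower) or 0.4 (2.33% and 0.676%) was assumed for each library, since the spread between libraries of a group is not known here. The median log2 ratio was 0.16 over the 33 measured members and 0.19 over the 36 with any count, against 0.01 over all measured genes.

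**Figure D1:**
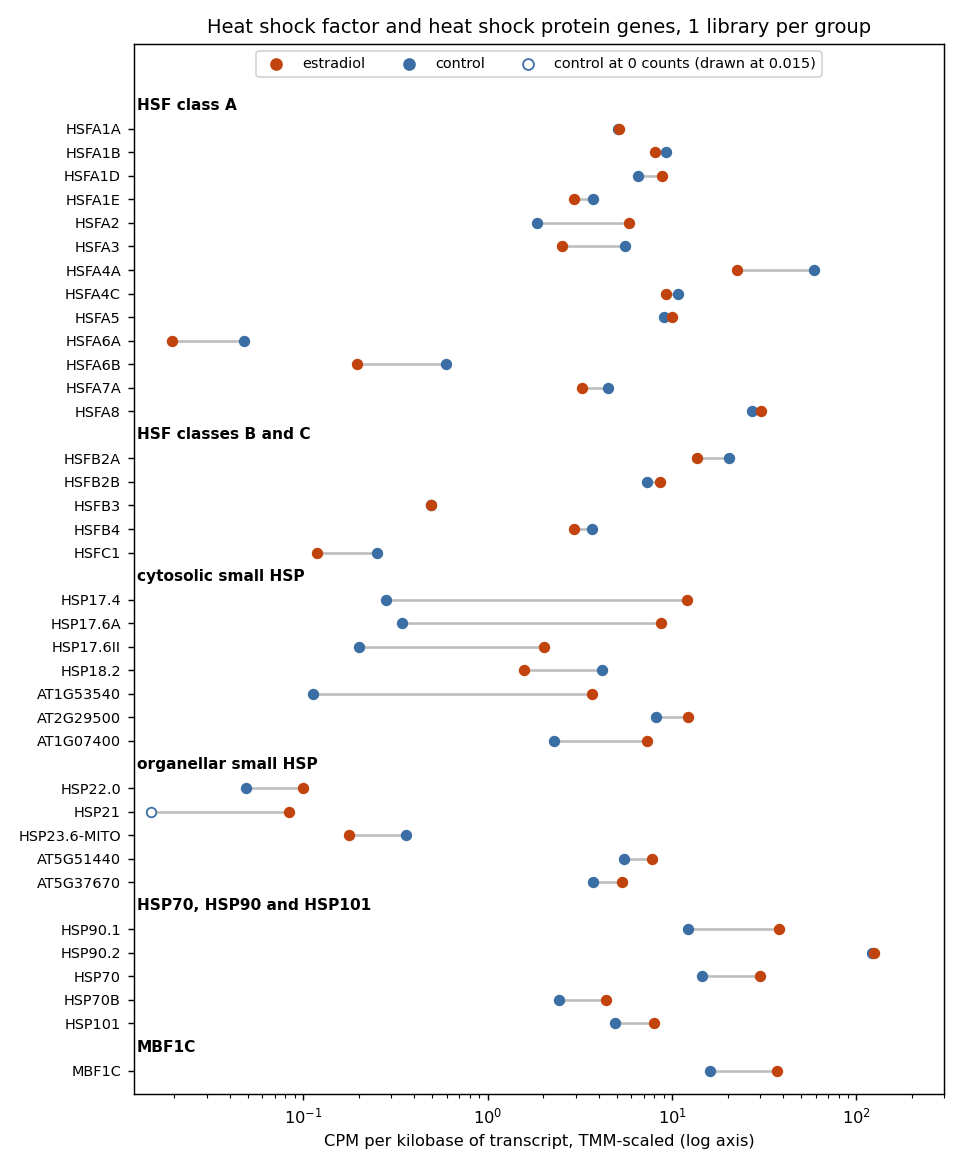
Level of each member with a count, in CPM per kilobase of transcript on a log axis, with 1 point per library (estradiol red, control blue) joined by a line, by class. The longest lines belong to the cytosolic small HSP genes, while HSFA1A, HSFB3 and HSP90.2 have points that nearly coincide.

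The upstream sequences of 4 members are shown first because they hold the letters of a heat shock element, and because the genes behind them differ in their ratios. The element searched was 3 inverted units, GAA NN TTC NN GAA on either strand (N is any base), in the 300 bases before the annotated gene start. It is marked in capitals below. Sequences are from the RefSeq TAIR10.1 genome and annotation, 5′ to 3′ on the gene's own strand, with any stretch inside a neighbouring gene left out. The count tables themselves hold locus identifiers and no coordinates.

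HSP17.4 (AT3G46230), chr3:16984868-16985167, minus strand: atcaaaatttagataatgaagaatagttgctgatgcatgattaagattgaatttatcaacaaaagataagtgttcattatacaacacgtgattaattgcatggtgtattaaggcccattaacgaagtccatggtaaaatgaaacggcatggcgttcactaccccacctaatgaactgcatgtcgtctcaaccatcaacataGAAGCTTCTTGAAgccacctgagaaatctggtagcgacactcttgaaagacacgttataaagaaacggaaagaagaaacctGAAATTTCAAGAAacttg
AT1G53540, chr1:19980126-19980298, plus strand: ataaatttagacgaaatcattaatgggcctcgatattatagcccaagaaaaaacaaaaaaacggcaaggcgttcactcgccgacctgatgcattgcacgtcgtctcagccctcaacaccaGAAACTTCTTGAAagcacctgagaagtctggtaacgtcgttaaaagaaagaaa
HSFA2 (AT2G26150), chr2:11135466-11135623, plus strand: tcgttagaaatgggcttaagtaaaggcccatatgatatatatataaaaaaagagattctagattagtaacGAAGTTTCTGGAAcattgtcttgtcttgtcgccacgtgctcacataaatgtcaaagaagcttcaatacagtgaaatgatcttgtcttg
HSFA7A (AT3G51910), chr3:19264841-19265140, plus strand: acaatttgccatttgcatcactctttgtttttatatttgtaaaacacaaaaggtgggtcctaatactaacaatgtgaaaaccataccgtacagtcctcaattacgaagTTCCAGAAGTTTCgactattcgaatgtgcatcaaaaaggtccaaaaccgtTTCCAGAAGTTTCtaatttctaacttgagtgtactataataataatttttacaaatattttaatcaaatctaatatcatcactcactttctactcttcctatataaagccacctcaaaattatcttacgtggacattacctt

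Of the 39 upstream windows 6 (15.4%) held the 3-unit element, against 131 of 26711 protein-coding loci in the count tables (0.490%). The 6 were HSP17.4 and HSFA7A with 2 elements each, and AT1G53540, HSFA2, HSP90.1 and HSFA7B with 1 each. By call, 4 of the 8 genes called higher held it, 0 of the 2 called lower, 1 of 23 called neither and 1 of 6 not measured. The element therefore stood upstream both of genes with large ratios and of HSFA7A, whose ratio was 0.717 (0.585 to 0.880). The other 4 genes called higher, HSP17.6A, HSP17.6II, AT1G07400 and MBF1C, had no match, which says only that these letters are not in this window. Matches were counted over full windows, including stretches inside neighbouring genes. Such stretches took up 300 bases of the window of MBF1C, 276 of AT1G07400 and 190 of HSP17.6A. With 2 inverted units, GAA NN TTC, the contrast was smaller: 8 of the 39 windows (20.5%) held a match, against 11.4% of the protein-coding loci. By call these were 4 of the 8 genes called higher, 1 of the 2 called lower, 1 of 23 called neither and 2 of 6 not measured. The distance to the start depends on where the annotation begins a gene. For HSP90.1 the annotated gene start is also the annotated coding start, so no leader (transcript before the coding start) is annotated. An ATG in the same frame stands shortly before it, so that start may lie inside the coding sequence. The element of HSP90.1 lies inside the neighbouring gene MEF1.

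**Figure D2:**
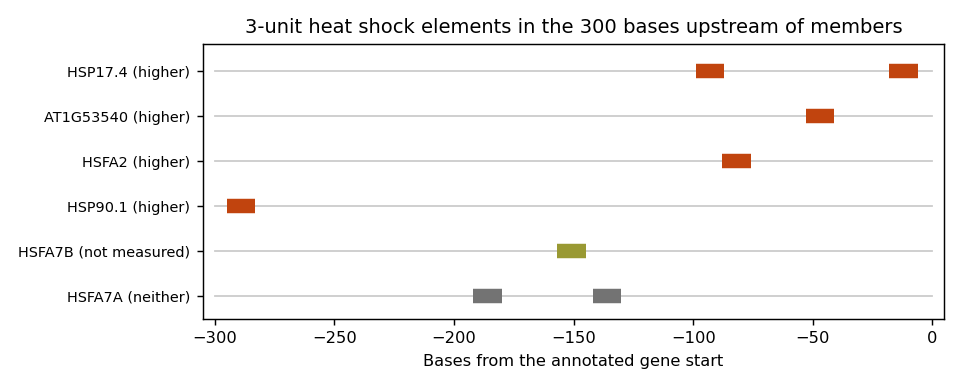
Position of the 3-unit heat shock elements (thick bars) in the 300 bases upstream of the 6 members that hold one, in bases from the annotated gene start, ordered by ratio and coloured by call. HSP17.4 and HSFA7A hold 2 elements each, and the element of HSP90.1 lies farthest from its annotated start.

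Heat shock factors of class A were called once in each direction. The 4 HSFA1 genes, whose products are the constitutive master activators of the heat response, were not called, with ratios between 0.786 and 1.33. HSFA1A (AT4G17750) had 422 counts with estradiol and 339 in the control, 8.67 and 8.58 CPM after scaling, a ratio of 1.01 (0.874 to 1.17). HSFA1B (AT5G16820) had 785 and 731 counts with estradiol and in the control, a ratio of 0.871 (0.787 to 0.965). HSFA1D (AT1G32330), with 878 counts with estradiol and 534 in the control, had the highest ratio of the 4 at 1.33 (1.20 to 1.49), and HSFA1E (AT3G02990), with 277 and 286, the lowest at 0.786 (0.664 to 0.930). Summed, the 4 genes stood at 48.5 CPM with estradiol and 47.8 CPM in the control.

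HSFA2 (AT2G26150), a factor that HSFA1 proteins induce and that prolongs the heat response, was the HSF gene called higher. It had 533 counts with estradiol and 138 in the control, 10.9 and 3.49 CPM, a ratio of 3.13 (2.59 to 3.81). Its share of all HSF counts was 4.22% (3.87 to 4.58, exact binomial) with estradiol and 0.993% (0.835 to 1.17) in the control. HSFA4A (AT4G18880), a factor tied to responses to reactive oxygen species, was the one called lower. It had 2568 counts with estradiol and 5469 in the control, 52.7 and 138 CPM, and was 2.62-fold lower with estradiol (2.50 to 2.75). In the control library HSFA4A had the most counts of the HSF genes other than HSFB1, 39.4% of them (38.6 to 40.2). With estradiol its share was 20.3% (19.6 to 21.0), next to 20.1% (19.4 to 20.8) for HSFA8, which stood at 13.2% (12.7 to 13.8) in the control. Scaled to transcript length, as CPM per kilobase, HSFA4A was at 22.5 with estradiol and 59.0 in the control, and HSFA8 at 30.3 with estradiol and 27.1 in the control.

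HSFA3 (AT5G03720), a factor activated by DREB2A in drought and heat, lay just short of a call. It had 272 counts with estradiol and 488 in the control, a ratio of 0.452 (0.389 to 0.526). HSFA6B (AT3G22830), linked to abscisic acid responses, had 15 and 37 counts with estradiol and in the control, a ratio of 0.329 whose wide interval (0.168 to 0.614) crosses the threshold. The heat-inducible HSFA7A (AT3G51910) had 183 counts with estradiol and 207 in the control. HSFA8 (AT1G67970), HSFA5 (AT4G13980) and HSFA4C (AT5G45710), the gene known as ROOT HANDEDNESS 1, had ratios of 1.12 (1.05 to 1.19), 1.11 (1.00 to 1.23) and 0.868 (0.787 to 0.956). HSFA6A (AT5G43840) had 1 count with estradiol and 2 in the control, too few for a ratio. HSFA7B (AT3G63350) and the seed factor HSFA9 (AT5G54070) were at 0 in both libraries, which allows up to 0.0616 CPM with estradiol and 0.0759 CPM in the control. Over all 15 class A genes the summed level was 211 CPM with estradiol and 292 CPM in the control. Without HSFA4A the class summed to 158 CPM with estradiol and 154 CPM in the control.

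None of the 5 measured genes of classes B and C was called. HSFB2A (AT5G62020) and HSFB2B (AT4G11660), of the repressor class, differed in direction. HSFB2A had 1169 counts with estradiol and 1410 in the control, a ratio of 0.673 (0.622 to 0.728), and HSFB2B had 946 and 658, a ratio of 1.17 (1.06 to 1.29). HSFB4 (AT1G46264), known as SCHIZORIZA for its role in root tissue patterning, had 226 and 230 counts with estradiol and in the control. HSFB3 (AT2G41690) had 26 and 21. HSFC1 (AT3G24520) had 10 counts with estradiol and 17 in the control, but an antisense locus, AT3G24518, covers 96.7% of its exon bases, so its counts are uncertain. HSFB1 (AT4G36990), a repressor whose mRNA is known for upstream reading frames, is listed at 0 in both libraries. The counted locus with the next lower identifier, AT4G36988, is also at 0 in both and is not in the annotation used here, so the zeros are not read as absence of HSFB1 RNA.

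Small HSP genes of the cytosol held the 4 largest ratios among the 39 genes. Of 7 genes 5 (71.4%, against 5.38% of all measured genes) were called higher with estradiol. Of the rest 1 (14.3%, against 4.64%) was lower and 1 neither. The median log2 ratio was 3.24. HSP17.4, AT1G53540 and HSP17.6II, called higher, reached 10 counts only in the estradiol library. HSP17.4 (AT3G46230) had 424 counts with estradiol and 8 in the control, 8.71 and 0.202 CPM, a ratio of 43.0 (21.6 to 100.3). By the lower bound of that interval it ranked 84th of the 20274 measured genes. AT1G53540, annotated as an HSP20-like chaperone, had 161 counts with estradiol and 4 in the control, a ratio of 32.7 (12.5 to 121). These 2 genes carry the element variants GAAGCTTCTTGAA and GAAACTTCTTGAA in the sequences above, and their transcripts are 80.9% identical over 632 aligned bases.

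HSP17.6A (AT5G12030) and HSP17.6II (AT5G12020), which is annotated as a class II small HSP, lie on the same strand of chromosome 5 with 845 bases between them. HSP17.6A had 374 counts with estradiol and 12 in the control, a ratio of 25.3 (14.3 to 49.4). HSP17.6II had 87 with estradiol and 7 in the control, a ratio of 10.1 (4.69 to 25.8). Both neighbours thus stood far above the control library, and their transcripts are 82.5% identical over 662 aligned bases. AT1G07400, another HSP20-like gene, had 306 counts with estradiol and 78 in the control, a ratio of 3.18 (2.48 to 4.14). AT2G29500 had 630 and 342 counts with estradiol and in the control, and at a ratio of 1.49 (1.31 to 1.71) it was not called.

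HSP18.2 (AT5G59720), a small HSP gene long used as a heat-inducible reporter, ran the other way. It had 75 counts with estradiol and 162 in the control, 1.54 and 4.10 CPM, and was 2.66-fold lower with estradiol (2.01 to 3.55). The lower limit of that fold is close to the threshold, and with total counts as the scaling the gene was not called. It had no transcript match of at least 80% identity over 100 bases among the counted loci, and no small HSP pair reached 90%.

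The make-up of the cytosolic small HSP counts differed between the libraries, which does not depend on the scaling. HSP17.4 made up 20.6% of the counts of the 7 genes with estradiol (18.9 to 22.4) and 1.31% in the control (0.565 to 2.56). HSP18.2 made up 3.65% with estradiol (2.88 to 4.55) and 26.4% in the control (23.0 to 30.1). AT2G29500 had the largest share in both, 30.6% (28.6 to 32.7) with estradiol and 55.8% (51.8 to 59.8) in the control. The share of AT1G07400 was 14.9% with estradiol (13.4 to 16.5) and 12.7% in the control (10.2 to 15.6), with overlapping intervals. Together the 7 genes had 2057 counts with estradiol and 613 in the control, a ratio of 2.72 (2.49 to 2.98).

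**Figure D3:**
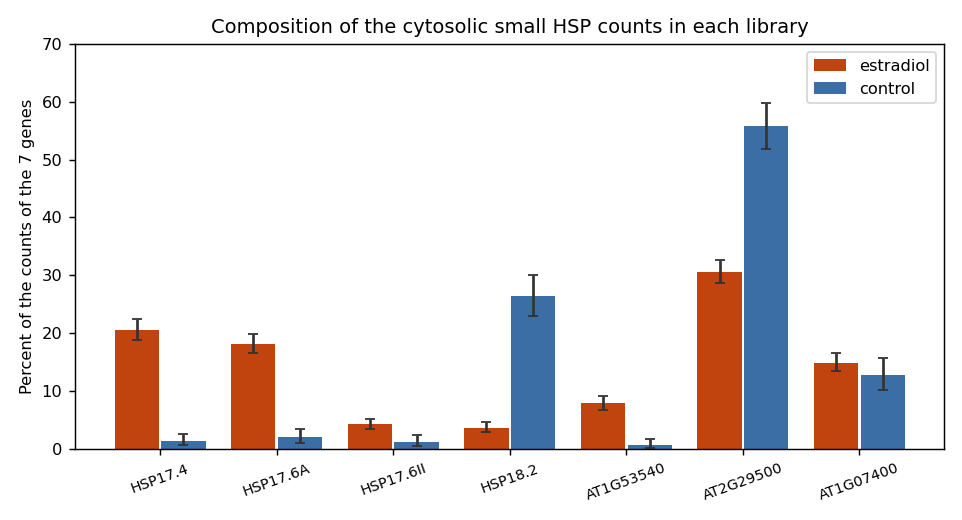
Share of each cytosolic small HSP gene in the counts of all 7, in percent, for the estradiol library (red) and the control library (blue), with exact binomial 95% intervals as error bars. HSP17.4, HSP17.6A and AT1G53540 together are a large part of the estradiol bars and nearly none of the control bars, while HSP18.2 and AT2G29500 take the larger shares in the control.

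The 5 small HSP genes grouped as organellar were not called. AT5G51440 had 424 counts with estradiol and 242 in the control, a ratio of 1.42 (1.21 to 1.67), and AT5G37670 had 218 and 123, a ratio of 1.44 (1.15 to 1.81). Both intervals lie above 1 and below 2. HSP23.6-MITO (AT4G25200), of the mitochondrion, had 9 counts with estradiol and 15 in the control. HSP22.0 (AT4G10250), of the endoplasmic reticulum, had 5 and 2, and HSP21 (AT4G27670), of the chloroplast, had 4 and 0. These 3 are low in both libraries, at no more than 0.362 in CPM per kilobase, and HSP22.0 and HSP21 did not reach the count minimum.

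The larger chaperone genes all had ratios above 1. Of the 5, 1 (20%) was called higher, against 5.38% of all measured genes. HSP90.1 (AT5G52640), the heat-inducible cytosolic HSP90, had 3877 counts with estradiol and 1016 in the control, 79.6 and 25.7 CPM, a ratio of 3.10 (2.89 to 3.32). HSP90.2 (AT5G56030), a constitutive HSP90 gene, had 16886 counts with estradiol and 13369 in the control, a ratio of 1.02 (1.00 to 1.05). Of the counts of these 2 genes HSP90.1 made up 18.7% with estradiol (18.1 to 19.2) and 7.06% in the control (6.65 to 7.49). HSP90.2 is 91.9% identical to HSP81-3 over 2506 aligned bases and 91.1% to Hsp81.4 over 2418, so the split of reads among these 3 genes is uncertain.

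HSP70 (AT3G12580), a stress-inducible cytosolic HSP70, was at the edge of the threshold. It had 3682 counts with estradiol and 1445 in the control, a ratio of 2.07 (1.95 to 2.20). HSP70B (AT1G16030), another heat-inducible HSP70 gene, had 551 with estradiol and 246 in the control, a ratio of 1.82 (1.56 to 2.12). The disaggregase gene HSP101 (AT1G74310) had 1276 with estradiol and 637 in the control, a ratio of 1.63 (1.48 to 1.79). MBF1C (AT3G24500), a transcriptional coactivator needed for thermotolerance, had 1983 counts with estradiol and 693 in the control, 40.7 and 17.5 CPM, and was called higher at 2.32 (2.13 to 2.54). Its exons overlap those of MSH7 and ALDH2C4 on the other strand, by 1.82% and 9.45% of its exon bases, and the ratios of those genes were 1.25 (1.13 to 1.40) and 1.45 (1.41 to 1.48). HSP17.4 likewise shares 8.29% of its exon bases with AT3G46220, whose ratio was 1.23 (1.14 to 1.33). Overlaps with exons on the other strand covered 0.498% to 6.84% of the exon bases of HSFA3, HSFA1B, HSP101 and HSFB2B.

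**Figure D4:**
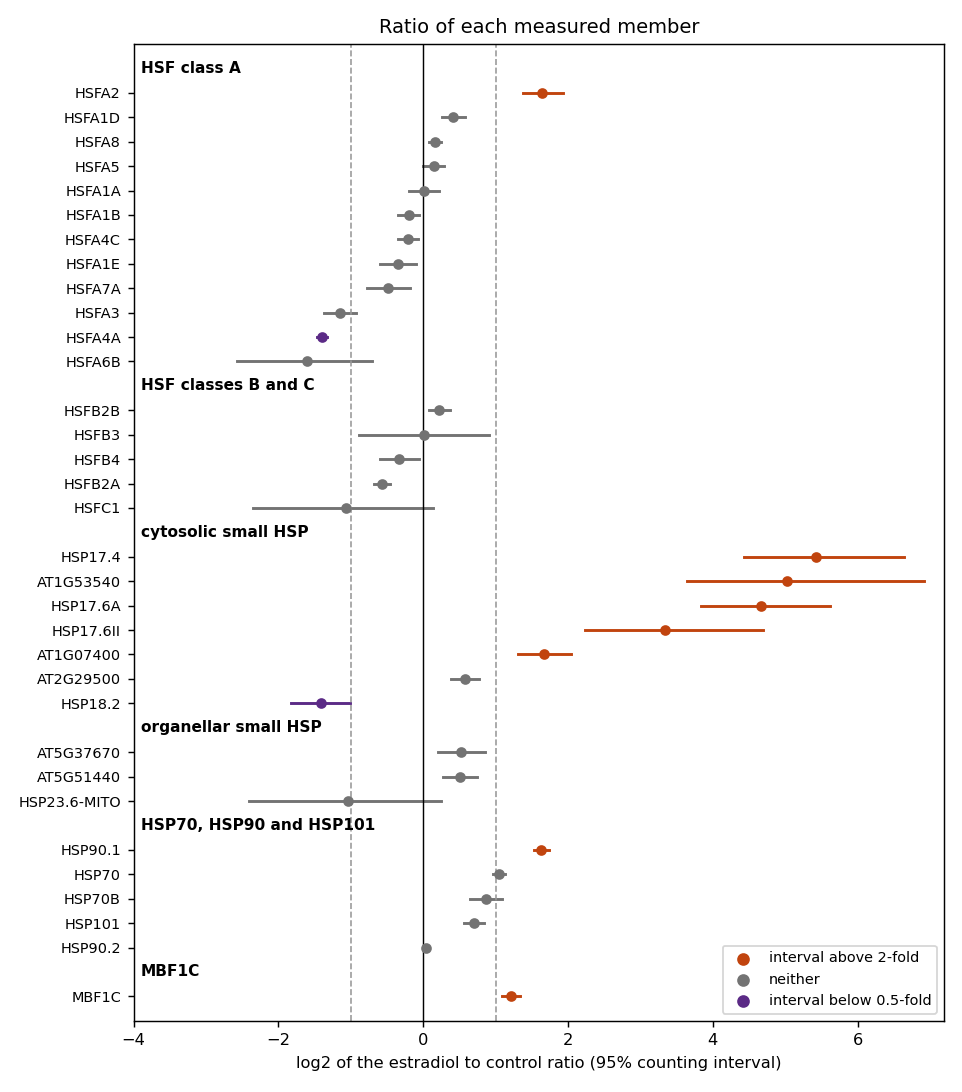
Log2 of the estradiol to control ratio of each of the 33 measured members with its 95% counting interval, by class and sorted within class, with dashed lines at 2-fold and 0.5-fold. The intervals of 5 cytosolic small HSP genes, HSFA2, HSP90.1 and MBF1C lie wholly to the right of the 2-fold line, and those of HSFA4A and HSP18.2 wholly to the left of the 0.5-fold line.

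Levels per kilobase place these ratios among very different abundances. HSFB1, whose zeros are not read as absence, could not be placed. HSP90.2 was the most abundant member in both libraries, at 124 with estradiol and 121 in the control, in CPM per kilobase. Next with estradiol were HSP90.1 at 37.9, MBF1C at 37.3, HSFA8 at 30.3 and HSP70 at 30.0. In the control they were HSFA4A at 59.0, HSFA8 at 27.1, HSFB2A at 20.3 and MBF1C at 16.1. The HSP90.1 model has no annotated leader, and a shorter model gives a higher value per kilobase. Its place above MBF1C with estradiol is therefore uncertain. HSP17.4, despite its ratio, reached 12.0 with estradiol and stood at 0.280 in the control, near AT2G29500 with estradiol (12.3).

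Other chaperone and heat response genes were taken from 7 lists of 56 loci, of which 55 were measured. With estradiol 6 were called higher (10.9%, against 5.38% of all measured genes) and 1 lower (1.82%, against 4.64%). The median log2 ratio was 0.17, against 0.01 over all measured genes. At a 4-fold threshold 2 of the 55 were higher and 0 lower, against 2.31% and 0.794% of all measured genes. Of the 6 called higher at 2-fold, BIP3, BIP2 and SHD are chaperones of the endoplasmic reticulum. BIP3, an HSP70 of the endoplasmic reticulum that unfolded proteins induce, had 3471 counts with estradiol and 30 in the control, a ratio of 93.9 (65.6 to 139). BIP2 and SHD, the HSP70 and HSP90 of the same compartment, had ratios of 2.11 (2.06 to 2.16) and 2.46 (2.41 to 2.51). The constitutive cytosolic HSC70-1 had 71939 and 56510 counts with estradiol and in the control, a ratio of 1.03 (1.02 to 1.04).

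Among small HSP genes outside the 39, AT1G52560 had 57 counts with estradiol and 1 in the control, a ratio of 46.3 (7.97 to 1859). This gene was the single call of 8 (12.5%, against 5.38% of all measured genes called higher). It reached 10 counts only in the estradiol library, so it could pass the minimum only by being higher there. Co-chaperones, which load and release clients of HSP70 and HSP90, gave 1 call in 15 (6.67%, near the background share), Hop3, with 443 counts with estradiol and 140 in the control and a ratio of 2.57 (2.12 to 3.13). Their median log2 ratio was 0.54, against 0.01 over all measured genes. Of the 15 intervals 13 lay above 1, against 36.7% of intervals over all measured genes. These shares are not like for like, because interval width depends on counts and the background includes genes with as few as 10. The stress-inducible galactinol synthase gene GolS1 had 155 with estradiol and 33 in the control, a ratio of 3.81 (2.60 to 5.73). DREB2A, which lies upstream of HSFA3, had 575 with estradiol and 1326 in the control and was 2.84-fold lower (2.57 to 3.14). GolS1 and DREB2A were the 2 of these 56 genes with the 3-unit element in the upstream window. None of 7 chaperonin genes of the HSP60 and CPN10/20 list and neither of the 2 other CLPB genes was called.

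**Figure D5:**
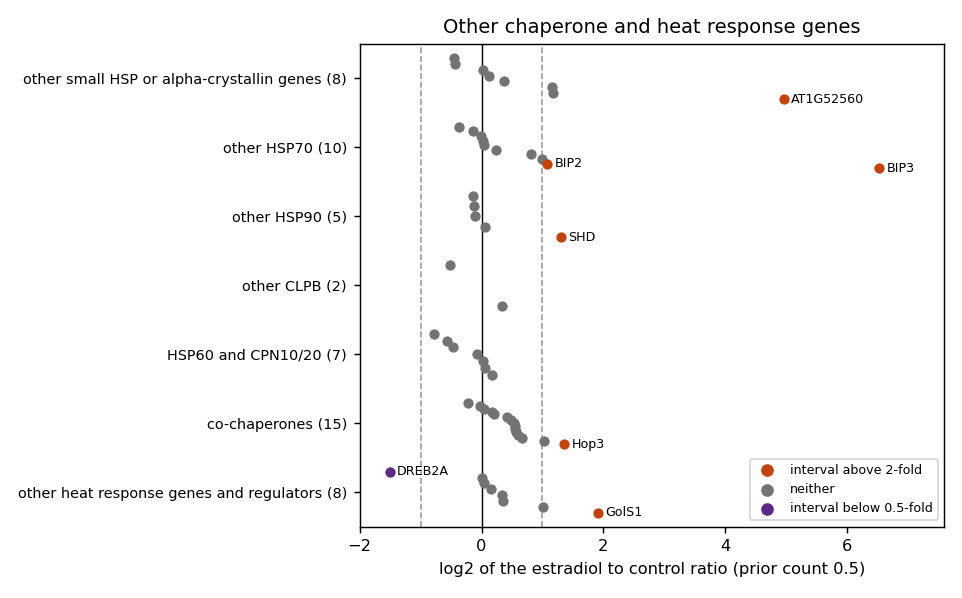
Log2 of the estradiol to control ratio of the 55 measured chaperone and heat response genes outside the 39, by list, 1 point per gene, with dashed lines at 2-fold and 0.5-fold and names for called genes. BIP3 and AT1G52560 stand far to the right, most co-chaperones lie between 0 and the 2-fold line, and DREB2A is the gene called lower.

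Of 18 tissue markers 12 were measured, and 1, the xylem protease gene XCP1, was called. XCP1 had 731 counts with estradiol and 247 in the control, a ratio of 2.40 (2.08 to 2.79). The other xylem marker, the cellulose synthase gene IRX3, went the other way, with 258 counts with estradiol and 278 in the control, a ratio of 0.753 (0.633 to 0.895). The xylem sum of 20.3 CPM with estradiol and 13.3 CPM in the control was therefore higher through XCP1 alone. The phloem markers SUC2 and SEOR1 had ratios of 0.839 (0.813 to 0.867) and 0.970 (0.904 to 1.04). Among the mesophyll markers CAB1 had the lowest ratio, 0.520 (0.515 to 0.526). The guard cell markers summed to 40.3 CPM with estradiol and 59.5 CPM in the control, and the epidermis markers to 45.4 CPM with estradiol and 51.5 CPM in the control. Of the epidermis markers, ATML1 had a ratio of 0.847 (0.796 to 0.903), while GL2 went the other way at 1.44 (1.14 to 1.82). The part of such differences in the heat shock gene values was not tested.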

How the data were processed

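Each group has 1 RNA library, so precision rests on counting depth alone. The authors deposited raw gene counts, whole numbers for 33602 loci in each of 2 tables. Per the submitters' processing notes FastQC, HTSeq and DESeq were used with TAIR10. Tool versions, aligner, annotation release and strand setting: not given in the sources used here. In each table, 5 summary lines were left out of library sizes. Ambiguous reads were 1.91% of the estradiol and 2.05% of the control table, and reads outside features 0.693% and 0.742%.

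Library sizes were scaled with TMM factors (edgeR 4.0.16, R 4.3.3), 1.007 for estradiol and 0.993 for control. Ratios have exact 95% intervals (Clopper-Pearson, given the summed counts, scipy 1.17.1). They cover counting error only, and PCR copies are not independent molecules. Log2 ratios use a prior count of 0.5, and a count of 0 allows up to 3 counts. The size rule was tested on simulated data with counting error only, so that test does not cover variation between libraries. Names, exon lengths, overlaps and sequences come from RefSeq TAIR10.1, where all 39 members and 32835 of the counted loci matched. Its 5 nuclear chromosomes are those of TAIR10. Similar transcripts were searched with BLAST+ 2.17.0. Values are printed for called members, HSFA1 genes, HSFA2, HSFB1, the larger chaperones and MBF1C, for small classes, and for up to 2 called genes of each other list. Members outside this rule are given for completeness, and HSC70-1 and marker genes were chosen after their values were seen. Members and lists were chosen with earlier results of these data known.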

Additional observations from a re-analysis of the deposited data

How the results depend on the processing

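Median-of-ratios size factors and the absence of a count minimum changed no call among the 39 members. With total counts as the scaling 1 member was called lower: HSP18.2 lost its call, which left the cytosolic small HSP class with 0 lower. A minimum of 50 counts moved the median log2 ratio of the measured members to 0.42, and a prior count of 2 moved that of the cytosolic small HSP genes to 3.00.

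A 4-fold threshold, and a coefficient of variation of 0.2 or 0.4 assumed for each library, each left 4 members higher (HSP17.4, HSP17.6A, HSP17.6II and AT1G53540) and 0 lower. Under each of these 3 settings the calls were 0 for HSF class A in both directions, 0 lower for the cytosolic small HSP genes, 0 for the larger chaperones and 0 for MBF1C. Of the 55 other heat response genes measured, 2 were then higher and 0 lower. Over all measured genes 468 were higher and 161 lower at 4-fold (2.31% and 0.794%), 698 and 385 with a variation of 0.2 (3.44% and 1.9%), and 472 and 137 with a variation of 0.4 (2.33% and 0.676%). With 2 inverted units, GAA NN TTC, 20.5% of member windows and 11.4% of all windows held the motif.

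The variation between libraries of a group cannot be estimated here, so every call among the members rests on counting error. The calls of HSFA2, HSFA4A, HSP18.2, AT1G07400, HSP90.1 and MBF1C were lost once a variation of 0.2 was assumed. Those of HSP17.4, HSP17.6A, HSP17.6II and AT1G53540 stayed, but that variation was assumed and not measured. In the control library HSP17.4, HSP17.6II and AT1G53540 had 8, 7 and 4 counts, below the minimum of 10. These genes passed that minimum only through being higher with estradiol, and the assumed variation does not correct for this. No paired analysis was possible because each group has 1 library. Genes under 10 counts in both libraries are beyond what this depth can compare.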
